A study of Mus musculus with 16 samples.

Results

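The machinery described here is a set of 8 genes, Ung, Apex1, Apex2, Hmces, Msh6, Exo1, Polh and Trp53bp1, taken by gene name from the 51912 genes of the deposited table. The rule uses no measured value, but the genes were chosen with earlier results of these data known. All 8 were present and all 8 passed the filter of a mean normalized count of at least 10, which 12505 genes passed. The normalized count is the number of reads of a gene divided by 1 size factor per library.

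The RNA came from germinal center (GC) B cells of the spleen of cMyc gfp/gfp mice, in which a GFP-cMyc fusion protein is made from the endogenous locus. Male and female mice 6 to 15 weeks old received sheep red blood cells (SRBC) intraperitoneally, and spleens were taken on day 7. B cells were enriched by removal of CD43-bearing cells and sorted into 4 subpopulations, which all carried B220, CD95 and cMyc-GFP with low CD38. The cMyc+prePB cells were CD69hi. The cMyc+early cells were CD23hi and CD21/35hi, the cMyc+lateCD23int cells were intermediate for both markers, and the cMyc+lateCD23lo cells were low for both. In the paper's gating, cMyc+early and both late subpopulations were light zone cells, left after cMyc+prePB and dark zone cells had been gated out. The cMyc+prePB cells were not gated by zone, and the paper reports that they were mostly light zone cells. Each subpopulation had 4 libraries, numbered 1 to 4. The labels do not say that these came from separate mice, nor that libraries of the same number shared mice, so p-values measure the spread between libraries, which may be technical. The libraries used here include no cMyc-negative and no unimmunized group.

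Somatic hypermutation and class switching in GC B cells begin with uracil in the DNA of immunoglobulin genes. Uracil that is copied gives a transition mutation, and uracil that is processed opens the way to further mutations or to the breaks used in class switching. The uracil glycosylase UNG removes the base and leaves an abasic site, which the endonuclease APE1 (Apex1) or its relative APE2 (Apex2) can cut and which HMCES can cross-link in single-stranded DNA. The mismatch repair route begins with MSH6, which recognizes the U:G mismatch, and goes on with EXO1, which resects the strand, and DNA polymerase eta (Polh), which fills the gap with errors at A:T pairs. 53BP1 (Trp53bp1) protects broken ends and favours their joining in class switching.

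Recovered reads ranged from 19812080 to 25795815 per library. A count of 3 reads, taken as the floor, corresponded to a normalized count of 2.48 to 3.23, and every member lay above it in every library. The lowest value of any member was that of Polh in cMyc+prePB replicate 1, at 42 reads. All 10 GC B cell markers, among them Bcl6 and Mki67, were above 0 in some library of every subpopulation. Summed normalized counts of the markers ranged from 67450 to 117300 for the GC B cell list, from 40.8 to 487.1 for the 7 T cell markers, from 0.827 to 989.9 for the 6 myeloid markers and from 164.6 to 4954 for the 5 erythroid markers.

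Per kilobase of annotated exon, Apex1 was the most abundant member, with a mean of 4764 normalized counts per kb over the 16 libraries. It was followed by Hmces at 1762, Msh6 at 504.4, Ung at 219.4 and Exo1 at 154.5 normalized counts per kb. Trp53bp1 at 28.0, Apex2 at 25.7 and Polh at 23.9 normalized counts per kb were close together, and their ranges over the libraries overlapped. The ranges of Ung and Exo1 also overlapped (104.5 to 352.5 and 78.5 to 213.9 normalized counts per kb), whereas those of Apex1 (3482 to 6677) and Hmces (827.6 to 3409) did not meet. These values use all merged exons of a gene, so a gene with long exons that few transcripts contain is placed too low.

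Hmces was the 1 member with a difference among the subpopulations that passed the adjusted test in limma. Its level was higher in cMyc+lateCD23lo than in cMyc+early and cMyc+prePB, with cMyc+lateCD23int in between, and every cMyc+lateCD23lo library lay above all 12 others. In the F test over the 4 subpopulations (limma, Benjamini-Hochberg over all genes tested), Hmces was the 1 member of 8 with an adjusted p-value under 0.05, at 0.00119, where 51 of the 12505 genes, 0.408%, passed. The same share of members, 1 of 8 and again Hmces, passed in cMyc+early versus cMyc+lateCD23lo, where 0.28% of all genes passed, and in cMyc+prePB versus cMyc+lateCD23lo, where 0.264% passed. No member passed in cMyc+prePB versus cMyc+early (0.192% of all genes), cMyc+early versus cMyc+lateCD23int (0.008%), cMyc+lateCD23int versus cMyc+lateCD23lo (0.008%) or cMyc+prePB versus cMyc+lateCD23int (0.144%).

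**Figure D1:**
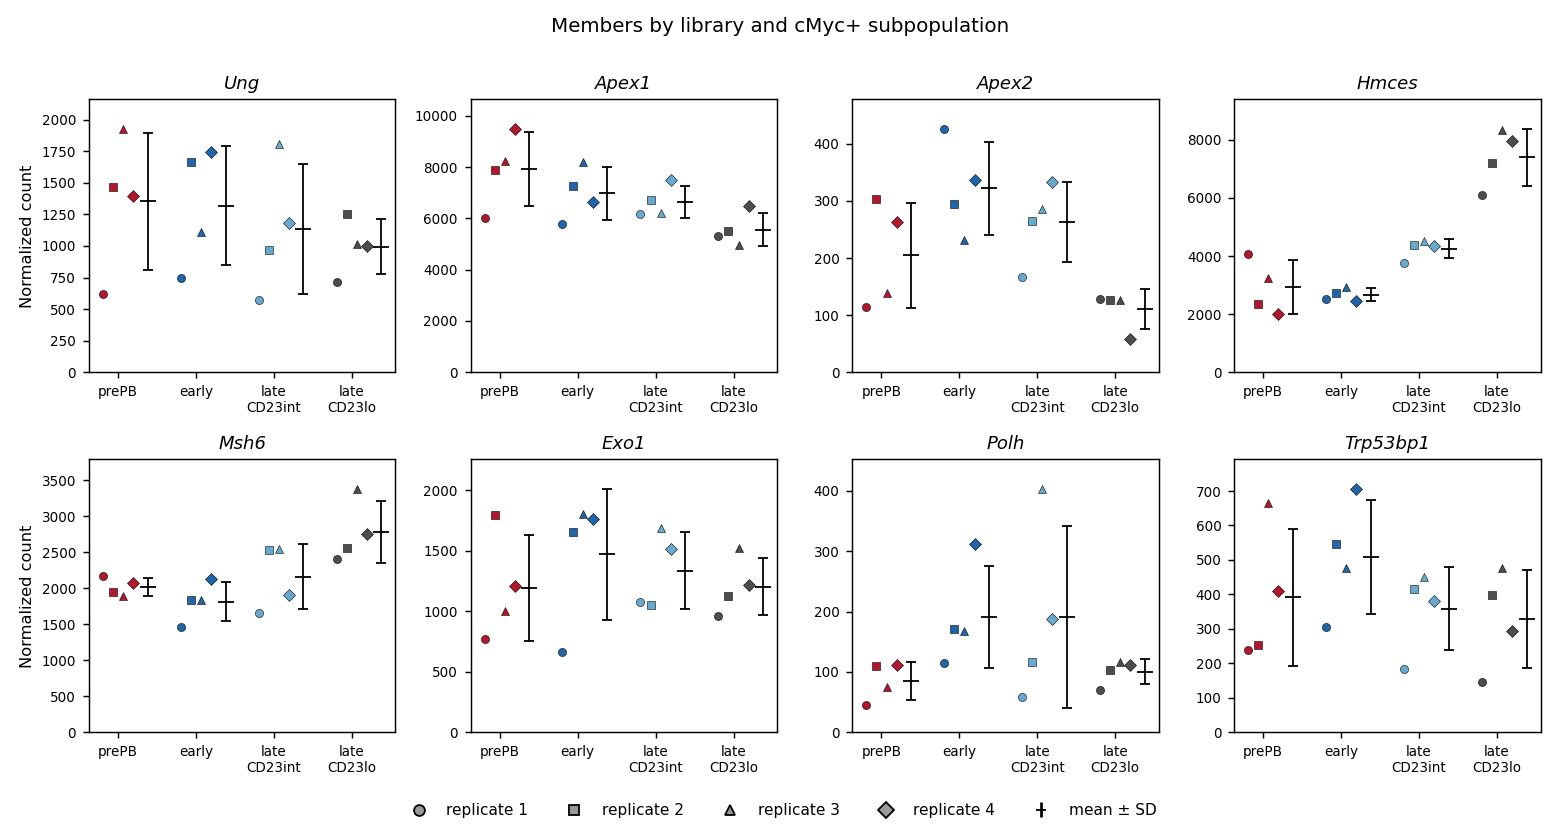
Normalized count (linear vertical axes starting at 0) of each of the 8 members in the 4 libraries of each cMyc+ subpopulation, with 1 symbol per replicate number and the mean ± SD (n = 4) at the right of each group. The 4 cMyc+lateCD23lo libraries of Hmces lie between 6108 and 8334, above all others, and those of Apex2 lie between 58.1 and 128.2, below all cMyc+early and cMyc+lateCD23int libraries.

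At an unadjusted p-value under 0.05, 4 of the 8 members stood out in the F test (Hmces, Apex1, Apex2 and Msh6), where 10.2% of all genes did. The counts were 0 members in cMyc+prePB versus cMyc+early (8.58% of all genes), 1 in cMyc+early versus cMyc+lateCD23int (3.71%) and 2 in cMyc+lateCD23int versus cMyc+lateCD23lo (6.28%). They were 3 in cMyc+early versus cMyc+lateCD23lo (10.3%), 1 in cMyc+prePB versus cMyc+lateCD23int (8.77%) and 3 in cMyc+prePB versus cMyc+lateCD23lo (12.7%). Only adjusted p-values are taken as calls below, and fold changes are on the scale of log2(normalized count + 1), which understates the change of low genes.

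Promoter sequences are shown for Hmces and Msh6, which were both higher in cMyc+lateCD23lo in the values given below, and for Apex1, which was lower there. They come from the RefSeq starts on GRCm38, cover the part of the 250 bases before the start that holds no annotated exon, and run 5′ to 3′ on the gene's strand, which is the plus strand for all 3. The stretches are chr6:87913726-87913934 for Hmces, chr17:87974800-87975049 for Msh6 and chr14:50924894-50924948 for Apex1. Capitals mark matches on either strand to the E2F motif TTTNNCGC, the E-box CACGTG or the NF-Y motif CCAAT, the last of which reads ATTGG on the other strand.
Hmces: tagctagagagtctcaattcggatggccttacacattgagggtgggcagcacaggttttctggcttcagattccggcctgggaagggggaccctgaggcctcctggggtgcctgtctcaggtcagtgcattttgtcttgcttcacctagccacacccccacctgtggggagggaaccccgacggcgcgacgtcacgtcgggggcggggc
Msh6: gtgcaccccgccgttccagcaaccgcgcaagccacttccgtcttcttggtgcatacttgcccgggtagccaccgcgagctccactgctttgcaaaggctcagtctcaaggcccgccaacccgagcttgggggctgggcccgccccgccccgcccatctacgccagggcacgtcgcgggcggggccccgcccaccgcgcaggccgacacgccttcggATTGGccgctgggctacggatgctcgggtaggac
Apex1: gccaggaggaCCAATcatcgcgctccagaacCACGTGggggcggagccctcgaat
The Hmces window held 0 matches to the 3 motifs, the Msh6 window 1 match to CCAAT, and the Apex1 window 1 match each to CACGTG and CCAAT, which do not overlap. The windows of Ung, Polh and Trp53bp1 held 0 matches. Among 32851 RefSeq promoters, 4.28% held TTTNNCGC, 6.02% CACGTG and 33.9% CCAAT in these 250 bases. A match is a description of the letters only. Promoters were matched for 6 of the 8 members, and those of Apex2 and Exo1 are not shown.

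Ung (chromosome 5, 114130386 to 114139323, plus strand, GRCm38) encodes the uracil glycosylase, whose nuclear and mitochondrial forms cannot be separated in gene counts. Its 4 libraries in cMyc+prePB had normalized counts of 619.1, 1470, 1928 and 1399, and those in cMyc+early 748.3, 1668, 1114 and 1744, from replicate 1 to 4. In cMyc+lateCD23int they were 571.2, 968.9, 1806 and 1180, and in cMyc+lateCD23lo 716.6, 1251, 1012 and 996.4. All 4 subpopulations overlapped, and the spread within them was wide, with a coefficient of variation of 45.6% in cMyc+lateCD23int. The log2 difference was 0.0041 ± 0.371 (SE) for cMyc+prePB minus cMyc+early, 0.26 ± 0.371 for cMyc+early minus cMyc+lateCD23int and 0.0957 ± 0.371 for cMyc+lateCD23int minus cMyc+lateCD23lo. Between the ends of the CD23 series, cMyc+early minus cMyc+lateCD23lo, the 95% interval ran from -0.42 to 1.14 on the log2 scale, so a difference of either sign remained possible. The adjusted p-value of the F test (limma) was 0.905.

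Apex1 (chromosome 14, 50924968 to 50927139, plus strand) encodes the main abasic-site endonuclease of base excision repair. Its normalized counts were 6026, 7901, 8250 and 9495 in cMyc+prePB and 5787, 7254, 8209 and 6646 in cMyc+early. They were 6158, 6701, 6215 and 7494 in cMyc+lateCD23int and 5299, 5520, 4951 and 6477 in cMyc+lateCD23lo. From high to low, the means were those of cMyc+prePB (7918 ± 1435, SD, n = 4), cMyc+early (6974 ± 1020), cMyc+lateCD23int (6642 ± 618.2) and cMyc+lateCD23lo (5562 ± 653.5), but the groups overlapped in each pair. The log2 difference was 0.18 ± 0.155 (SE) for cMyc+prePB minus cMyc+early, 0.063 ± 0.155 for cMyc+early minus cMyc+lateCD23int and 0.26 ± 0.155 for cMyc+lateCD23int minus cMyc+lateCD23lo. For cMyc+prePB minus cMyc+lateCD23lo it was 0.50 ± 0.155, with the cMyc+prePB library higher in 4 of 4 replicate numbers, an unadjusted p of 0.00472 and an adjusted p of 0.197 (limma), which did not pass. Of the annotated exon bases of Apex1, 61.7% are shared with exons of Pip4p1 on the opposite strand, at a mean normalized count of 450.3, and the library kit does not mark strand.

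Apex2 (chromosome X, 150519519 to 150589868, minus strand) encodes a weaker abasic-site endonuclease with strong exonuclease activity. Its normalized counts were 115, 302.7, 138.8 and 262.4 in cMyc+prePB and 426.5, 294.7, 231 and 335.8 in cMyc+early. They were 167.2, 264.6, 286.5 and 333.7 in cMyc+lateCD23int and 128.2, 127.3, 127.4 and 58.1 in cMyc+lateCD23lo. Every cMyc+lateCD23lo library was below every cMyc+early and cMyc+lateCD23int library, whereas cMyc+prePB spanned both ranges. The log2 difference was 1.57 ± 0.416 (SE) for cMyc+early minus cMyc+lateCD23lo, a 2.98-fold difference with an unadjusted p of 0.00135 and an adjusted p of 0.155 (limma). With DESeq2 on the recovered reads the adjusted p was 0.0207, so the call depends on the tool. The difference was 1.27 ± 0.416 for cMyc+lateCD23int minus cMyc+lateCD23lo (adjusted p = 0.699, limma), -0.73 ± 0.416 for cMyc+prePB minus cMyc+early (adjusted p = 0.672) and 0.30 ± 0.416 for cMyc+early minus cMyc+lateCD23int. Without cMyc+lateCD23lo replicate 4, whose 58.1 rested on 57 reads, cMyc+early minus cMyc+lateCD23lo was 1.29. Exons of Alas2, an erythroid gene on the opposite strand with a mean normalized count of 3.53, cover 3.56% of the exon bases of Apex2. Exons of Pfkfb1, also on the opposite strand, cover 1.41% of them, and its mean normalized count of 113.1 was close to that of Apex2 in cMyc+lateCD23lo (110.3).

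Hmces (chromosome 6, 87913935 to 87936629, plus strand) encodes the sensor that cross-links to abasic sites in single-stranded DNA. In cMyc+prePB its normalized counts were 4075, 2333, 3246 and 2023, and in cMyc+early 2533, 2731, 2947 and 2444. In cMyc+lateCD23int they were 3775, 4379, 4512 and 4342, and in cMyc+lateCD23lo 6108, 7193, 8334 and 7969. The 3 subpopulations of the CD23 series did not overlap with each other, and cMyc+prePB overlapped with cMyc+early and, through replicate 1, with cMyc+lateCD23int. The mean of cMyc+lateCD23lo (7401 ± 984.6, SD, n = 4) exceeded that of cMyc+early (2664 ± 223.7) by 1.47 ± 0.187 (SE) on the log2 scale, or 2.77-fold, with an adjusted p of 0.00122 (limma). It exceeded that of cMyc+prePB (2919 ± 929.1) by 1.39 ± 0.187, or 2.61-fold, with an adjusted p of 0.00129. Both differences had the same direction in 4 of 4 replicate numbers, which follows from the lack of overlap. Only 44 of the 12505 genes, 0.352%, had all cMyc+lateCD23lo libraries above every other library, and Hmces was the 1 member among them.

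The intermediate steps of Hmces did not pass the adjusted test in limma. From cMyc+early to cMyc+lateCD23int (4252 ± 326.5) the difference was 0.67 ± 0.187 on the log2 scale, with an unadjusted p of 0.00194 and an adjusted p of 0.901. From cMyc+lateCD23int to cMyc+lateCD23lo it was 0.79 ± 0.187, with an unadjusted p of 0.000474 and an adjusted p of 0.473, and with DESeq2 the adjusted p was 0.0474. From cMyc+prePB to cMyc+lateCD23int it was 0.59 ± 0.187, with an adjusted p of 0.327. For cMyc+prePB minus cMyc+early the difference was 0.0815, with a 95% interval from -0.31 to 0.47. The antisense gene Gm26636 shares 6.30% of the exon bases of Hmces and had a mean normalized count of 2.55.

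Because these are bulk samples of sorted cells, more cells with Hmces RNA and more Hmces RNA per cell cannot be told apart. Values of other gene lists in the same subpopulations are given here beside those of Hmces. The 34 genes of an S-phase list had a median log2 difference of -0.19 for cMyc+early minus cMyc+lateCD23lo, against -0.0053 for all genes tested. At an unadjusted p under 0.05 (limma), which 10.3% of all genes had in either direction, 9 of 34 were lower in cMyc+early. At an adjusted one 0 of 34 were. For cMyc+early minus cMyc+lateCD23int the median was -0.0308, against -0.0275 for all genes. For cMyc+lateCD23int minus cMyc+lateCD23lo it was -0.1918, against 0.0157 for all genes, and 26 of the 34 differences were negative. There 7 of 34 were lower in cMyc+lateCD23int at an unadjusted p under 0.05 (limma), which 6.28% of all genes had in either direction. For cMyc+prePB minus cMyc+lateCD23lo the median was -0.1785, against -0.0064 for all genes, and 22 of the 34 differences were negative. In that comparison 9 of 34 were lower and 1 was higher in cMyc+prePB at an unadjusted p under 0.05 (limma), which 12.7% of all genes had. The summed normalized count of the S-phase list was 166500 to 228800 in cMyc+lateCD23lo, 172000 to 192800 in cMyc+lateCD23int, 169400 to 187600 in cMyc+early and 164500 to 189800 in cMyc+prePB. These ranges overlapped, and the medians were 218500, 180400, 172000 and 183500 in the same order. In the plasma cell list 1 of 6 genes, Jchain, was lower in cMyc+early than in cMyc+lateCD23lo at an adjusted p under 0.05 (0.0394, limma). In this comparison 0.28% of all genes passed. Of the 6 differences 4 were negative. At an unadjusted p under 0.05 (limma), which 10.3% of all genes had in either direction, 3 of 6 were lower and 0 higher in cMyc+early. The largest log2 difference was that of Prdm1, with means of 2.74 in cMyc+early, near the floor, and 82.9 in cMyc+lateCD23lo (adjusted p = 0.0893, limma). Irf4 (means of 720 and 595.7) and Sdc1 (11.5 ± 22.4, SD, n = 4, and 0.489, the latter below the floor) were higher in cMyc+early. The summed counts of the list were 32230 to 39890 in cMyc+early and 67060 to 104900 in cMyc+lateCD23lo. Most of each sum was Jchain, with means of 23620 and 64840. The sums were 48460 to 123000 in cMyc+prePB, where the mean of Hmces was 2919 normalized counts. The part of either in the level of Hmces was not tested.

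**Figure D2:**
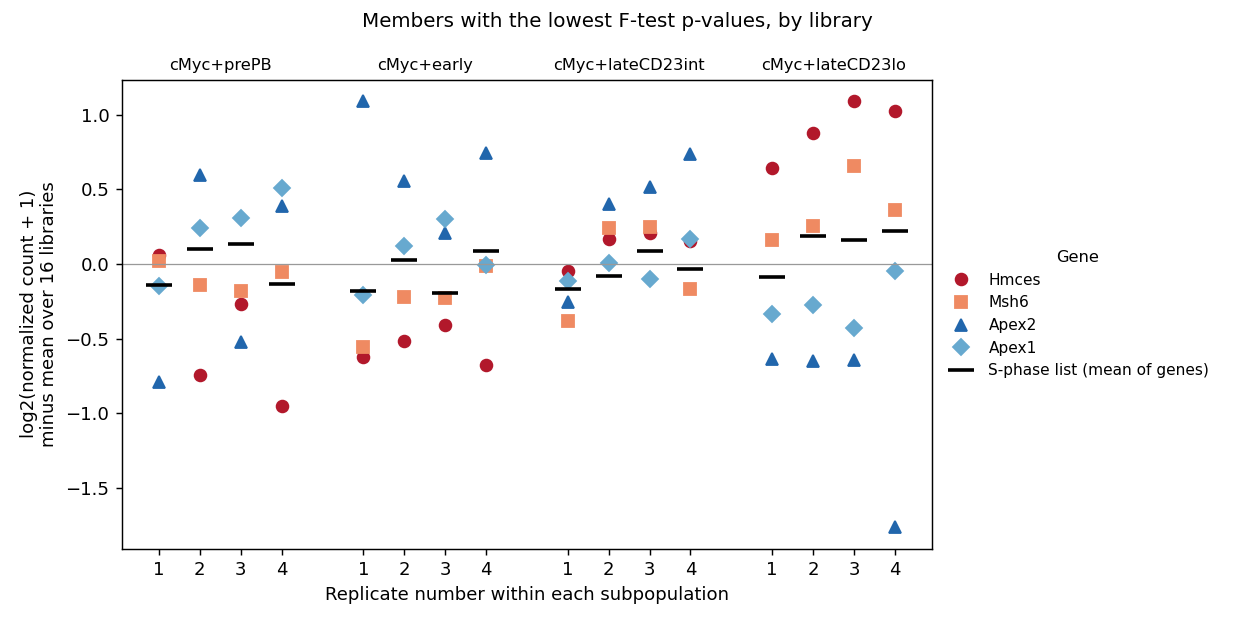
The log2(normalized count + 1) of Hmces, Msh6, Apex2 and Apex1 in each of the 16 libraries, minus each gene's mean over the 16 libraries, with a black dash for the mean over the 34 S-phase genes treated in the same way. Hmces and Msh6 are above 0 and Apex2 and Apex1 below 0 in all 4 cMyc+lateCD23lo libraries, whereas cMyc+prePB has no common direction.

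Msh6 (chromosome 17, 87975062 to 87990892, plus strand) encodes a sensor of mismatched bases. Its normalized counts were 2174, 1949, 1896 and 2067 in cMyc+prePB and 1457, 1837, 1832 and 2128 in cMyc+early. They were 1649, 2530, 2549 and 1908 in cMyc+lateCD23int and 2404, 2556, 3380 and 2753 in cMyc+lateCD23lo. All cMyc+lateCD23lo libraries were above all cMyc+early and cMyc+prePB libraries, and cMyc+lateCD23int overlapped with each of the other subpopulations. The log2 difference of cMyc+early minus cMyc+lateCD23lo was -0.61 ± 0.179 (SE), with an unadjusted p of 0.00292 and an adjusted p of 0.216 (limma), and that of cMyc+prePB minus cMyc+lateCD23lo was -0.45 ± 0.179, with an adjusted p of 0.302, so neither passed. The steps were 0.17 ± 0.179 for cMyc+prePB minus cMyc+early, -0.24 ± 0.179 for cMyc+early minus cMyc+lateCD23int and -0.37 ± 0.179 for cMyc+lateCD23int minus cMyc+lateCD23lo. Between cMyc+early and cMyc+lateCD23lo, 3 of the 8 members had libraries that did not overlap (Hmces and Msh6 higher and Apex2 lower in cMyc+lateCD23lo), and 6.23% of all genes tested were separated in this way. For the other pairs of subpopulations, here and below, the share of all genes without overlap was not computed.

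Exo1 (chromosome 1, 175880581 to 175913489, plus strand) encodes the exonuclease that acts after mismatch recognition. Its normalized counts ranged from 768.4 to 1797 in cMyc+prePB, from 661.3 to 1802 in cMyc+early, from 1056 to 1692 in cMyc+lateCD23int and from 958.0 to 1521 in cMyc+lateCD23lo. All 4 ranges overlapped, and the lowest value, in cMyc+early replicate 1, stood apart from the other 3 cMyc+early libraries at 1653, 1802 and 1766. The log2 difference was -0.27 ± 0.314 (SE) for cMyc+prePB minus cMyc+early, 0.064 ± 0.314 for cMyc+early minus cMyc+lateCD23int and 0.14 ± 0.314 for cMyc+lateCD23int minus cMyc+lateCD23lo. For cMyc+early minus cMyc+lateCD23lo it was 0.20, with a 95% interval from -0.46 to 0.86. The adjusted p-value of the F test was 0.948 (limma).

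Polh (chromosome 17, 46171355 to 46202645, minus strand) encodes the translesion polymerase behind most mutations at A:T pairs. Its normalized counts in cMyc+prePB were 45.1, 109.2, 75.7 and 110.9, and those in cMyc+early 114.2, 170.8, 168.4 and 312.4. In cMyc+lateCD23int they were 57.7, 117, 403.8 and 187.8, and in cMyc+lateCD23lo 70.0, 102.9, 117.2 and 111.2. The cMyc+prePB libraries were all below the cMyc+early libraries, though by only a few counts at the boundary, and the other pairs of subpopulations overlapped. The log2 difference of cMyc+prePB minus cMyc+early was -1.15 ± 0.554 (SE), with an unadjusted p of 0.053 and an adjusted p of 0.589 (limma). It was 0.25 ± 0.554 for cMyc+early minus cMyc+lateCD23int and 0.61 ± 0.554 for cMyc+lateCD23int minus cMyc+lateCD23lo. Polh was counted with 42 to 389 reads per library, and these wide errors limit what can be said of it.

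Trp53bp1 (chromosome 2, 121193281 to 121271407, minus strand) encodes 53BP1, which is recruited to chromatin around breaks. Its normalized counts ranged from 239.7 to 665.4 in cMyc+prePB, from 305.0 to 706.9 in cMyc+early, from 184.1 to 451.6 in cMyc+lateCD23int and from 145.5 to 476.1 in cMyc+lateCD23lo, and all 4 ranges overlapped. The log2 difference was -0.44 ± 0.431 (SE) for cMyc+prePB minus cMyc+early, 0.52 ± 0.431 for cMyc+early minus cMyc+lateCD23int and 0.18 ± 0.431 for cMyc+lateCD23int minus cMyc+lateCD23lo. For cMyc+early minus cMyc+lateCD23lo it was 0.70, with a 95% interval from -0.21 to 1.60 and the cMyc+early library higher in 4 of 4 replicate numbers. The adjusted p-value of the F test was 0.798 (limma). Of the exon bases of Trp53bp1, 15.0% are shared with Tubgcp4 on the opposite strand, whose mean normalized count of 934.8 was above that of Trp53bp1, so its level is uncertain.

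**Figure D3:**
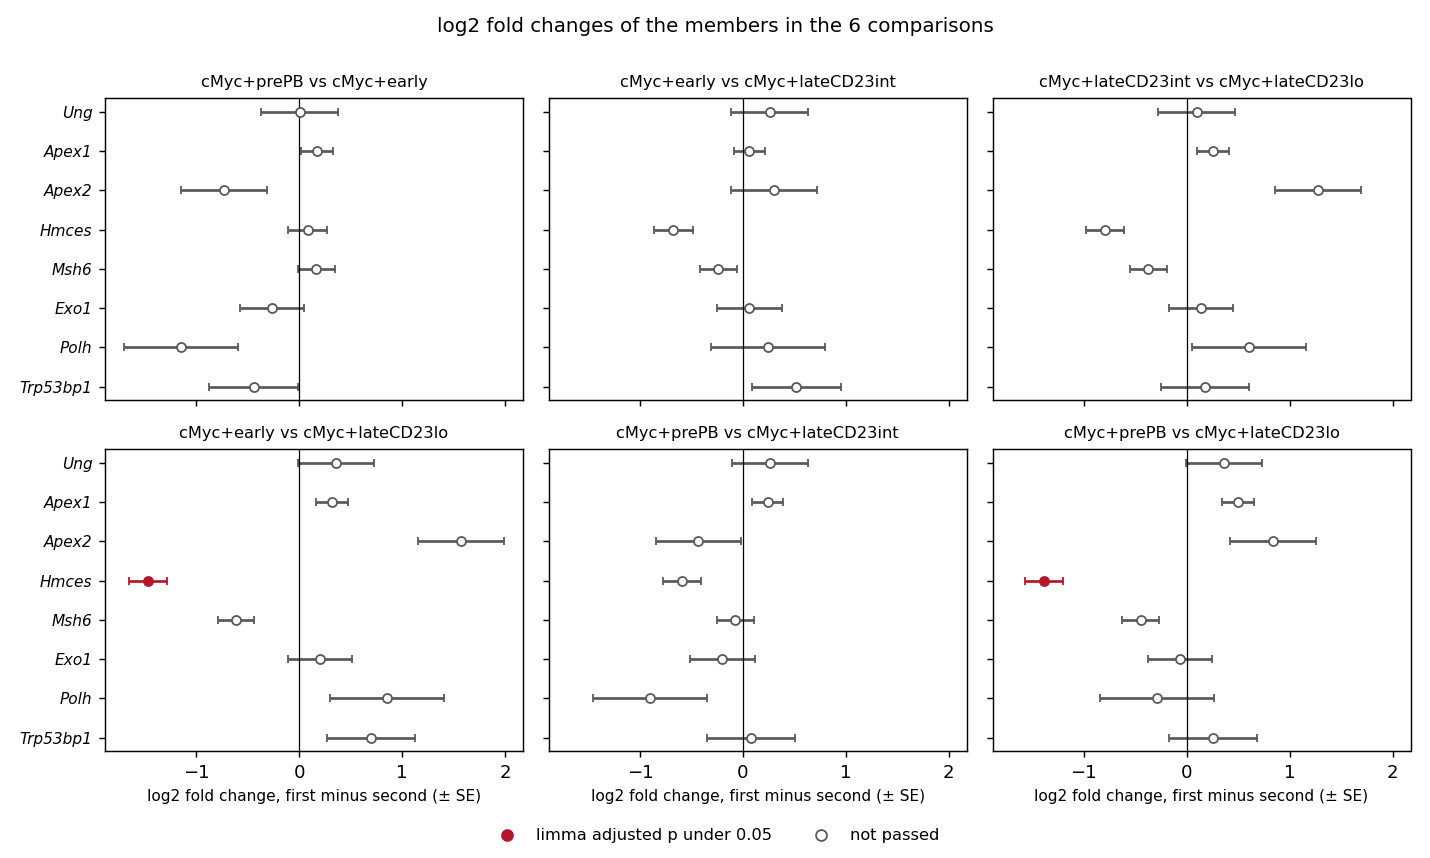
log2 fold change (horizontal axis, first named subpopulation minus second, on the log2(normalized count + 1) scale) ± SE of the 8 members in the 6 comparisons, from 1 limma model over the 16 libraries. Filled red points passed an adjusted p-value under 0.05, which Hmces alone did, in cMyc+early versus cMyc+lateCD23lo (-1.47) and cMyc+prePB versus cMyc+lateCD23lo (-1.39), and open points did not.

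As a set, the members did not share a direction. For cMyc+early minus cMyc+lateCD23lo 6 of the 8 log2 differences were positive and 2, those of Hmces and Msh6, negative, with a median of 0.34 against -0.0053 over all genes tested. For cMyc+prePB minus cMyc+early 4 were positive and 4 negative, with a median of -0.13 against 0.013. For cMyc+prePB minus cMyc+lateCD23lo 4 were again positive and 4 negative, with a median of 0.096 against -0.0064. These comparisons share libraries.

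Part of the spread within subpopulations went with the replicate number. In Ung, Polh and Trp53bp1 the library numbered 1 was the lowest of its subpopulation in all 4 subpopulations. These are 3 of the 8 members, and 842 of the 12505 genes tested, 6.73%, had 1 replicate number that was the lowest throughout. In 551 genes that number was 1, against 72 to 148 genes for the other numbers. A single number was the highest in all 4 subpopulations in 5.77% of all genes and in 0 of the 8 members. It was number 1 in 534 genes, against 33 to 84 genes for the other numbers, so the libraries numbered 1 stood apart in both directions. Apex1, Msh6 and Exo1 were lowest in replicate 1 in 3 of 4 subpopulations, and Hmces in 2. What the numbers stand for is not given in the sources used here, and this pattern was looked for after the values had been seen.

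Over the 16 libraries, the highest Pearson correlation of log2 values between members was that of Ung and Trp53bp1 (r = 0.784), followed by Hmces and Msh6 (r = 0.758). The lowest were those of Apex2 and Hmces (r = -0.729) and of Apex1 and Hmces (r = -0.699). Of the 28 pairs, 20 were positive, and the median was 0.281. The libraries share subpopulations and replicate numbers, so these values are descriptions. The genes most like Hmces among all genes tested were Pqlc3 (r = 0.911) and Pkig (r = 0.902). Ung was most like Atic (r = 0.953), an enzyme of purine synthesis, and Snrpa (r = 0.941), a splicing factor. The highest values were 0.919 for Apex1 with Sssca1, 0.876 for Apex2 with Lysmd4, 0.797 for Msh6 with Tirap, 0.836 for Exo1 with Rmnd5b, 0.909 for Polh with Ppil2 and 0.83 for Trp53bp1 with Abcf2.

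Of 7 genes listed for the transcription and RNA processing that accompany hypermutation, 0 passed an adjusted test in limma, edgeR or DESeq2 in the F test or any comparison. In the F test (limma) 0 of the 7 had an unadjusted p under 0.05, where 10.2% of all genes tested did. Supt5, a transcription elongation factor, had means of 843.0, 966.1, 898.8 and 380.3 from cMyc+prePB through cMyc+lateCD23lo, with an adjusted F-test p of 0.522.

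In base excision repair, 0 of 12 further genes passed an adjusted test in limma in the F test or in any of the 6 comparisons. In the F test 1 of 12 had an unadjusted p under 0.05, as did 10.2% of all genes tested. With edgeR 0 and with DESeq2 1 of the 12, Mbd4, passed. Over all genes DESeq2 called 265 in the F test, against 51 in limma. Mbd4, a glycosylase that removes thymine and uracil opposite guanine, had means of 1497, 2051, 2904 and 2740 normalized counts from cMyc+prePB through cMyc+lateCD23lo. Every cMyc+prePB library of Mbd4 was below every cMyc+lateCD23int library, and the log2 difference was -1.02 ± 0.234 (SE), with an adjusted p of 0.0954 (limma). Neil1, a glycosylase for oxidized bases, had a mean of 1378 in cMyc+lateCD23int, where its libraries ranged from 654.4 to 2361, and an adjusted F-test p of 0.603.

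In mismatch repair, 0 of 15 further genes passed an adjusted test in limma, and 6 of 15 had an unadjusted p under 0.05 in the F test, as did 10.2% of all genes tested. With edgeR 0 and with DESeq2 3 of the 15, Pcna, Rfc1 and Rfc3, passed. Over all genes DESeq2 called 265 in the F test and 15 to 273 in the 6 comparisons, more than limma. For cMyc+early minus cMyc+lateCD23lo 13 of the 15 differences were negative, as were 50.4% of those of all genes tested, with a median of -0.21 against -0.0053. At an unadjusted p under 0.05, which 10.3% of all genes had in either direction, 7 of the 15 were lower and 1 was higher in cMyc+early. Rfc1 and Rfc3, subunits of the clamp loader, were each higher in every cMyc+lateCD23lo library than in every other library, as were 0.352% of all genes tested. Rfc1 had a mean of 8357 in cMyc+lateCD23lo against 6461 in cMyc+early, and Rfc3 of 4789 against 3208, with adjusted F-test p-values of 0.231 and 0.27.

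In translesion synthesis, 0 of 11 further genes passed an adjusted test in limma. In the F test 0 of 11 had an unadjusted p under 0.05, where 10.2% of all genes tested did. With edgeR and with DESeq2 0 of the 11 passed. Primpol, a primase that restarts stalled forks, had means of 341.4, 481.5, 545.6 and 695.3 from cMyc+prePB through cMyc+lateCD23lo, with an adjusted F-test p of 0.52. Ube2b, a ubiquitin-conjugating enzyme that acts with RAD18 on PCNA, had means of 3977 in cMyc+early and 5240 in cMyc+lateCD23lo, with an adjusted F-test p of 0.553.

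In the double-strand break response and end joining, 21 of 23 listed genes were found. Of the 21, 1 passed an adjusted test in limma, 0 in edgeR and 2, Lig4 and Ercc6l2, in DESeq2. Over all genes DESeq2 called 265 in the F test and 273 in cMyc+prePB versus cMyc+lateCD23lo, against 51 and 33 in limma. In the F test (limma) 4 of the 21 had an unadjusted p under 0.05, as did 10.2% of all genes tested. The list did not share a direction, and for cMyc+prePB minus cMyc+lateCD23lo 9 of the 21 differences were negative. Ercc6l2 was higher in cMyc+prePB (mean 2183) than in cMyc+lateCD23lo (1146), with an adjusted p of 0.112 (limma). Lig4, the DNA ligase of end joining, had normalized counts of 74.2, 80.2, 243.4 and 123.5 in cMyc+prePB and of 123.7, 253.1, 274.3 and 218.5 in cMyc+early. They were 188.1, 309.4, 308.3 and 466.6 in cMyc+lateCD23int and 370.7, 592.3, 483.2 and 581.3 in cMyc+lateCD23lo. The cMyc+lateCD23lo libraries were above all cMyc+prePB and cMyc+early libraries, and within each replicate number the level was lowest in cMyc+prePB and highest in cMyc+lateCD23lo. Between cMyc+early and cMyc+lateCD23lo, 6.23% of all genes tested did not overlap, in either direction. The log2 difference of cMyc+prePB minus cMyc+lateCD23lo was -2.10 ± 0.416 (SE), with an adjusted p of 0.0344 (limma), where 0.264% of all genes passed. That of cMyc+early minus cMyc+lateCD23lo was -1.26 ± 0.416, with an adjusted p of 0.297, and the adjusted F-test p was 0.102. The call was lost without cMyc+prePB replicate 2 (adjusted p = 0.123) or 4 (0.0938), without cMyc+lateCD23int replicate 2 (0.0503), without cMyc+lateCD23lo replicate 2 (0.0984), 3 (0.103) or 4 (0.0993), and with edgeR (0.0734).

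**Figure D4:**
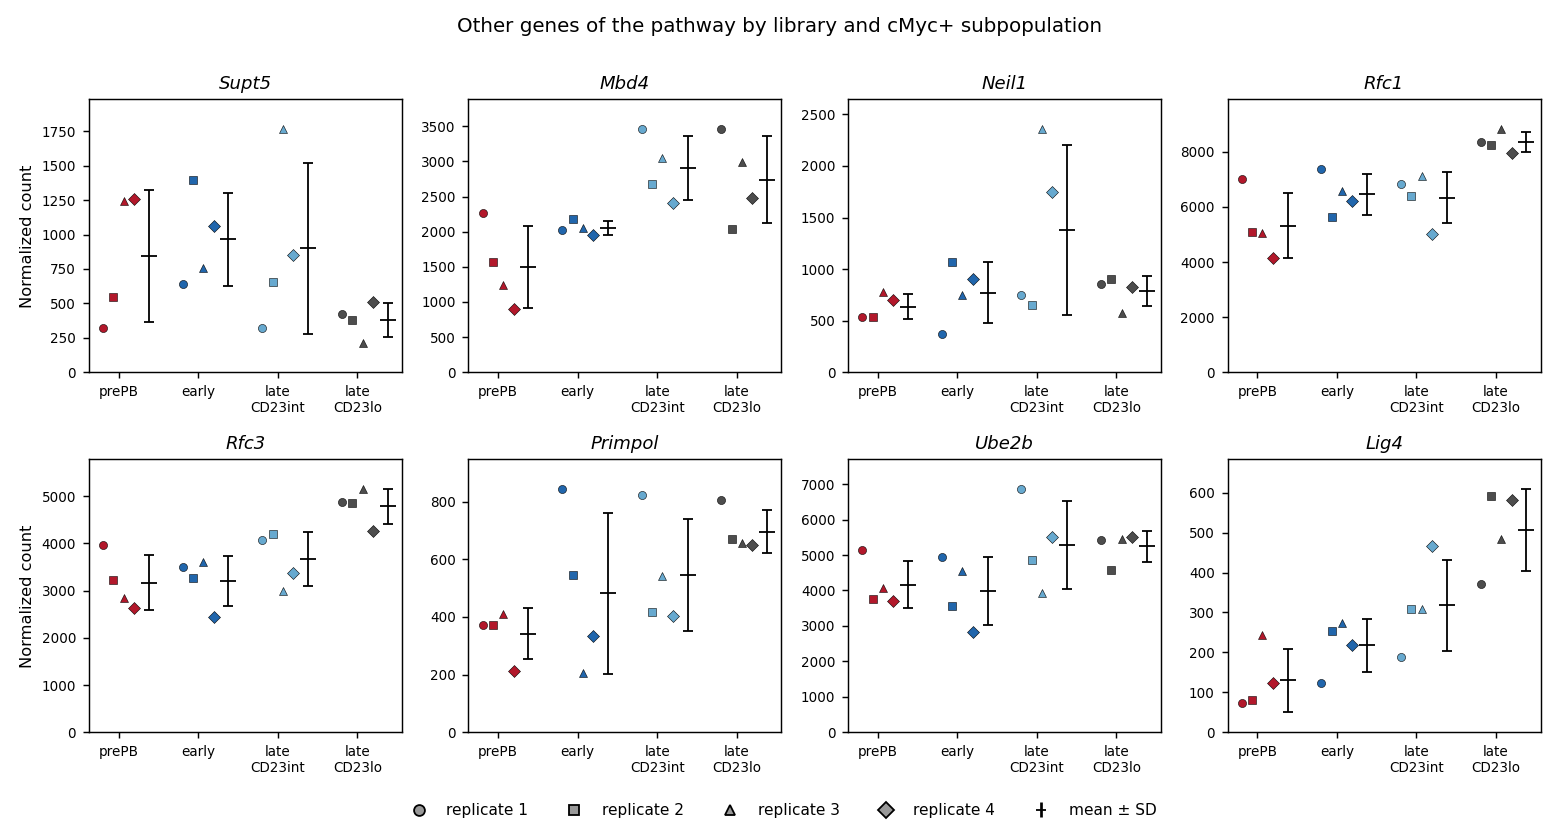
Normalized count (linear vertical axes starting at 0) of 8 other genes of the pathway, from 5 lists, in the 4 libraries of each cMyc+ subpopulation, with the mean ± SD (n = 4) at the right of each group. Lig4 goes from 74.2 to 243.4 in cMyc+prePB to 370.7 to 592.3 in cMyc+lateCD23lo.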

How the data were processed

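Total RNA of 4 sorted cMyc+ GC B cell subpopulations was sequenced in 16 libraries made with a low-input kit that does not mark strand. The deposited signal is a gene count divided by 1 size factor per library. The submitters' processing notes name Trimmomatic 0.36, STAR 2.5.2a, RSEM 1.2.31, DESeq2 1.20.0 and GRCm38, without their roles. In each library 100% of the values were whole multiples of the value of 1 read (tolerance 0.001), which gave the recovered reads. All columns were used, and groups came from the labels.

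The 12505 genes whose mean normalized count reached 10 were fitted on the log2 scale, after adding 1, by limma 3.58.1 (R 4.3.3) in 1 model with a mean-variance trend, an F test and 6 comparisons, with Benjamini-Hochberg adjustment over all genes and a threshold of 0.05. edgeR 4.0.16 and DESeq2 1.42.0 were run on the recovered reads as alternatives. The fit was tested on simulated data. Intervals of differences are 95% intervals of the model. Coordinates and exon lengths are from GENCODE release M21 of GRCm38, and promoters from RefSeq.

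The members and lists were chosen with earlier results of these data known. Named were the 8 members, from each pathway list the genes with an adjusted p-value under 0.05 or else the 2 with the lowest F-test p-values, and the genes most correlated with each member. Jchain, Prdm1, Irf4, Sdc1, Pcna and Ercc6l2 were named after their values were seen. Some genes of the pathway are not reported here.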

Additional observations from a re-analysis of the deposited data

Results flagged for a closer look

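In 68 groups of 4 libraries (the 8 members and 9 other pathway genes), 4 libraries lay apart from the other 3 of their group by Dixon's test, which chance does in about 1 group in 20. Apex2 in cMyc+lateCD23lo replicate 4 was at 58.13 normalized counts, below the others at 127.3 to 128.2. Exo1 in cMyc+early replicate 1 was at 661.3, below the others at 1653 to 1802. Primpol in cMyc+lateCD23lo replicate 1 was at 806.1, above the others at 647.6 to 671.8. Ube2b in cMyc+lateCD23lo replicate 2 was at 4584, below the others at 5413 to 5502.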

How the results depend on the processing

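Hmces kept its direction and an adjusted p-value under 0.05 under all 27 alternatives in cMyc+early versus cMyc+lateCD23lo (log2 difference -1.56 to -1.40, adjusted p at most 0.0181) and in cMyc+prePB versus cMyc+lateCD23lo (-1.56 to -1.23, at most 0.0389), and under all 26 in the F test (at most 0.0189). The number of members called changed only with DESeq2, from 1 to 2 in cMyc+early versus cMyc+lateCD23lo, with Apex2 added, and from 0 to 1 in cMyc+lateCD23int versus cMyc+lateCD23lo, where Hmces passed, and edgeR gave the counts of limma. The number of calls over all genes varied more, in the F test from 25 without the trend and 31 without a filter to 265 with DESeq2, against 51, in cMyc+early versus cMyc+lateCD23lo from 17 to 173 against 35, and in cMyc+prePB versus cMyc+lateCD23lo from 13 to 273 against 33. It was 0 to 131 against 24 in cMyc+prePB versus cMyc+early, 0 to 20 against 1 in cMyc+early versus cMyc+lateCD23int, 0 to 15 against 1 in cMyc+lateCD23int versus cMyc+lateCD23lo and 7 to 130 against 18 in cMyc+prePB versus cMyc+lateCD23int. The causes were not tested.

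Over all genes tested, same-numbered libraries deviated together only weakly (r = -0.129 to 0.174 over 24 pairs, 5 of them over 0.1). Such a range does not exclude an effect of a single number. Libraries numbered 1 were the lowest in all 4 subpopulations in 551 genes and the highest in 534. The labels do not say what the number marks, so it entered only in an alternative, as a block. With the replicate block, the members called remained 1 in the F test, 1 in cMyc+early versus cMyc+lateCD23lo, 1 in cMyc+prePB versus cMyc+lateCD23lo and 0 elsewhere, the adjusted F-test p of Hmces was 0.00104, and calls over all genes in the F test went from 51 to 173. The adjusted F-test p became 0.0315 for Mbd4 and 0.025 for Lig4. It was also under 0.05 with DESeq2 for Mbd4 (0.0221) and Lig4 (0.0057), without cMyc+prePB replicate 1 for Mbd4 (0.0226) and without cMyc+prePB replicate 3 for Lig4 (0.0454). The Lig4 call in cMyc+prePB versus cMyc+lateCD23lo was also lost with no filter (0.0615), rescaling to the same total (0.0571) and only the groups compared (0.0995).

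Leaving out single libraries turned the sign of 8 small differences, none of which passed a test. For cMyc+prePB minus cMyc+early they ranged from -0.24 to 0.34 in Ung and from -0.097 to 0.24 in Hmces. For cMyc+early minus cMyc+lateCD23int they ranged from -0.029 to 0.52 in Ung, from -0.019 to 0.15 in Apex1, from -0.070 to 0.41 in Exo1 and from -0.21 to 0.72 in Polh. For cMyc+lateCD23int minus cMyc+lateCD23lo they ranged from -0.17 to 0.38 in Ung and from -0.17 to 0.47 in Trp53bp1. No scaling moved the median of all genes by over 0.1. Polh was counted with 42 to 389 reads per library and Apex2 with 57 to 407, and the SE of a log2 difference was 0.554 for Polh, 0.431 for Trp53bp1 and 0.416 for Apex2.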
